A study of Mus musculus with 6 samples.

Results

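The 47 protein-coding genes whose symbols begin with Nduf, out of 55487 genes measured, were followed in mouse aorta with and without Ogt in smooth muscle cells. They were taken by symbol, and the set was chosen with earlier results of these data known. They comprised 39 genes named as subunits of mitochondrial complex I and 8 named as its assembly factors (Ndufaf). All 47 had a summed count of at least 60 over the 6 libraries and were tested, with sums of 91 or more and no count under 10 in any library. Total RNA of whole aorta was sequenced from 3 floxed control libraries (genotype label LoxP) and 3 libraries of the genotype Ogt SMC specific knockout, in which smooth muscle cells (SMC) lose Ogt. Ogt encodes O-GlcNAc transferase, which adds N-acetylglucosamine to nuclear and cytoplasmic proteins. The sample titles carry SM22, a name of the smooth muscle gene Tagln, whose promoter is commonly used to drive Cre recombinase in smooth muscle and is also active in the developing heart. Age, sex, strain, the Cre transgene itself and the number of mice per library are not stated in the labels. The controls carry the floxed Ogt allele, and whether they also carry Cre is not stated.

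Complex I (NADH:ubiquinone oxidoreductase) is the entry point of electrons from NADH into the respiratory chain. It is an L-shaped assembly with a matrix arm, made of the N module that oxidises NADH and the Q module that reduces ubiquinone, and a membrane arm that pumps protons. Core subunits of the matrix arm are encoded in the nucleus, core subunits of the membrane arm (the mt-Nd genes) in mitochondrial DNA, and accessory subunits around them in the nucleus. Assembly factors join the modules and leave the finished complex. Arterial smooth muscle draws on oxidative phosphorylation and glycolysis for contraction and tone.

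No complex I gene of the nucleus was called changed in the knockout aorta. The median log2 fold change (knockout over control) was 0.09 over the 39 subunit-named genes, with 25 positive and 14 negative values from -0.65 to 0.54. Over the 8 Ndufaf genes it was -0.14, with 2 positive and 6 negative values from -0.47 to 0.43. The median of all 15977 genes tested was -0.01. In edgeR's quasi-likelihood test, with p-values adjusted by Benjamini-Hochberg across all 15977 genes and called under 0.05, 0 of 39 subunit-named genes and 0 of 8 Ndufaf genes were called. Of all genes 3.35% were called, 1.83% higher and 1.51% lower. The smallest adjusted p among the 47 was 0.109, for Ndufa4. DESeq2, which gave no adjusted p for Ndufs3, and limma voom also called 0 of the 47, against 9.54% and 4.66% of all genes. At an unadjusted p under 0.05 there were 3 higher and 1 lower of the 39 and 0 of the 8, so 8.51% of the 47 genes against 22.9% of all genes. The 2 groups did not overlap for 11 of the 47 genes (23.4%), against 31.8% of all genes. These were 7 with every knockout above every control, against 16.9% of all genes, and 4 with every knockout below, against 15%. The 95% interval of the fold change lay within 1.5-fold in either direction for 19 of 39 subunit-named genes and 4 of 8 Ndufaf genes, and within 2-fold for 36 and 6. Of all 15977 genes, 4338 had intervals within 1.5-fold and 9850 within 2-fold. Taken gene by gene at the 95% level, the intervals exclude changes beyond those bounds for those genes and leave smaller ones possible. On simulated counts with these library sizes, the test found 48% of genes changed 2-fold and 90.8% of those changed 4-fold. The changed genes were drawn above a minimum expected count, and dispersion followed the fitted trend. Differences in composition between libraries were not simulated, so these rates may not hold for each member.

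**Figure D1:**
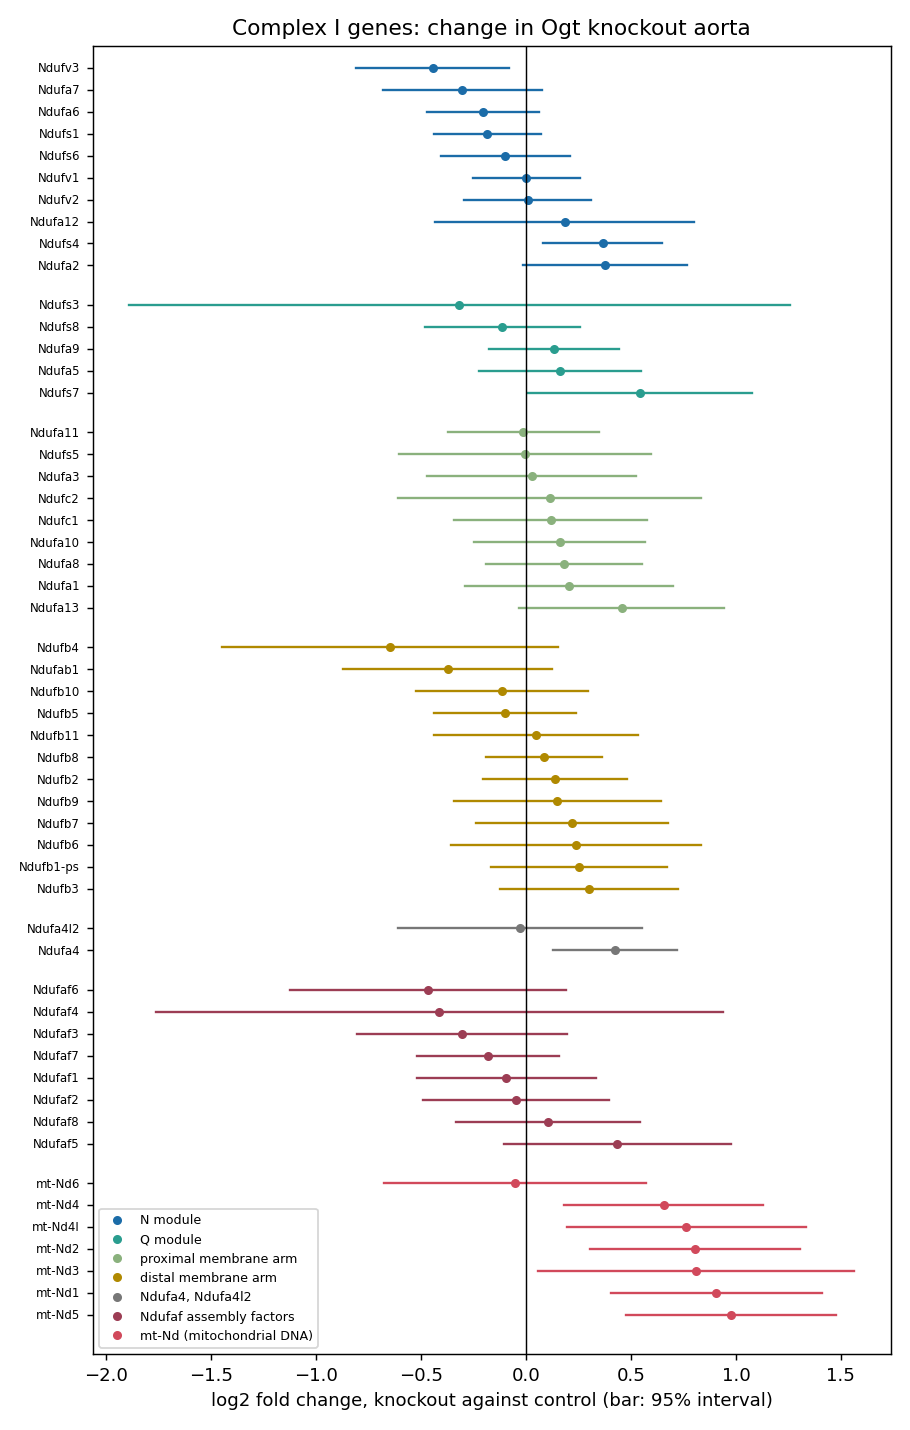
Log2 fold change of 46 Nduf genes and 7 mt-Nd genes (knockout against control, x axis) with its 95% interval from edgeR's quasi-likelihood fit, grouped by place in the complex. All nuclear genes drawn but Ndufs7 and Ndufb4 lie within 0.5 of 0, Ndufs3 and Ndufaf4 have the widest intervals, and 6 of the 7 mt-Nd genes lie to the right of 0.

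Facts of the libraries bear on every value below. Ogt itself stood at 177.1, 184.0 and 149.9 CPM (counts scaled to a common library size with the trimmed mean of M values, TMM) in controls 1 to 3 and 93.3, 73.4 and 70.9 in knockouts 1 to 3 (log2 fold change -1.10 ± 0.15, edgeR adjusted p = 0.0222). Whole aorta also holds cells other than smooth muscle, and the source of the remaining Ogt counts was not tested. Total counts ran from 11845644 to 18218385 in 5 libraries, but control replicate 2 had 3038782. In that library mitochondrial ribosomal RNA took 10.2% of counts, against 0.491% to 0.823% elsewhere. Smooth muscle markers summed to between 29801 and 37510 CPM in controls and between 25489 and 31683 in knockouts, with 1 of 7, Tagln, called lower. Some markers of 2 other tissues differed between the groups. Brown adipocyte markers summed to 288.1 to 417.9 CPM in controls and 158.4 to 210.5 in knockouts, with 3 of 7 tested called lower (Ucp1, Cox8b and Cox7a1). The largest part of this sum was Prdm16, which was not called (edgeR adjusted p = 0.126). Prdm16 had 177.2, 246.6 and 137.9 CPM in controls and 138.4, 94.1 and 93.7 in knockouts, with overlap. Striated muscle markers summed to 11.6 to 23.3 CPM in controls and 77.7 to 87.3 in knockouts, a difference carried by Ckm and Actc1, the 2 of 6 tested that were called higher. The other 4 were not called, with log2 fold changes of 0.60 for Myh6, 0.01 for Tnnt3, -0.06 for Myh7 and -1.14 for Acta1. The fast skeletal myosin genes Myh1, Myh2 and Myh4 were among the 4 of its 10 markers with too few counts to test. Both tissues are rich in mitochondria, and the part of these marker differences in the values of complex I genes was not tested. With each of the 6 libraries left out in turn, Ckm and Ucp1 were called in 6 of 6 fits, Actc1 and Ogt in 2, and Tagln, Cox8b and Cox7a1 only without control replicate 2. The edgeR adjusted p of Ogt ran from 0.0245 to 0.13 over those fits. White adipocyte, endothelial, macrophage and fibroblast marker sums overlapped between the groups, with 0 called. In bulk tissue, fewer cells of a type and less RNA per cell cannot be told apart.

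The N module carries the NADH-binding end of the matrix arm, and its core subunits Ndufv1 and Ndufv2 were at nearly the same level in both groups. Ndufv1, which binds NADH and the flavin cofactor, had 66.3, 58.5 and 65.2 CPM in controls and 66.6, 59.6 and 64.5 in knockouts, a log2 fold change of 0.00 with a 95% interval from -0.25 to 0.26. Ndufv2, an iron-sulfur protein beside it, had 50.2, 45.1 and 53.0 CPM in controls and 48.5, 44.8 and 56.3 in knockouts, with an interval from -0.30 to 0.31. In both genes the groups overlapped fully, and the sign of the small difference turned under other scalings. Ndufs1, the large iron-sulfur subunit of this module, had 70.7, 73.0 and 64.5 CPM in controls and 57.3, 64.0 and 61.5 in knockouts. All 3 knockouts lay below all 3 controls, by a narrow margin, at 87.8% of the control mean (log2 fold change -0.18 ± 0.11, edgeR adjusted p = 0.355).

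Accessory subunits of the N module held both the largest positive and the largest negative value of the module. Ndufs4, a small accessory subunit whose loss in mice gives a Leigh-like brain disease, had 21.4, 20.9 and 23.3 CPM in controls and 29.2, 26.6 and 29.0 in knockouts. The controls lay close together and every knockout was above them. The log2 fold change was 0.36 ± 0.12, which did not pass the adjusted threshold (unadjusted p = 0.0189, edgeR adjusted p = 0.138). Ndufv3, the accessory subunit bound to Ndufv1 and Ndufv2, had 78.3, 55.1 and 70.3 CPM in controls and 54.8, 44.7 and 51.2 in knockouts. The highest knockout was just under the lowest control, which was control replicate 2 (log2 fold change -0.45 ± 0.16, edgeR adjusted p = 0.151). Without control replicate 2 the value was -0.56 with an edgeR adjusted p of 0.0462, the 1 call made for any Nduf gene in any alternative tried, where 5.7% of all genes were called. Ndufa2, a thioredoxin-fold subunit, had 58.8, 43.9 and 68.9 CPM in controls and 79.7, 74.6 and 71.0 in knockouts. Every knockout was above every control, with control replicate 3 just under the lowest knockout (0.38 ± 0.17, edgeR adjusted p = 0.232), and the value was 0.24 without control replicate 2. Ndufa7 had 44.6, 33.9 and 50.9 CPM in controls and 34.95, 33.2 and 37.8 in knockouts, groups that overlapped through control replicate 2 (-0.30 ± 0.16, edgeR adjusted p = 0.310), and the value was -0.17 without control replicate 3. Ndufa6, which holds the acyl carrier protein to the matrix arm, had 49.8, 50.3 and 58.8 CPM in controls and 45.8, 44.4 and 47.9 in knockouts, all below the controls (-0.21 ± 0.11, edgeR adjusted p = 0.332). Ndufs6 and Ndufa12 had values of -0.10 and 0.19. Over the 10 genes of the module, 5 values were positive and 5 negative with a median of -0.05.

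**Figure D2:**
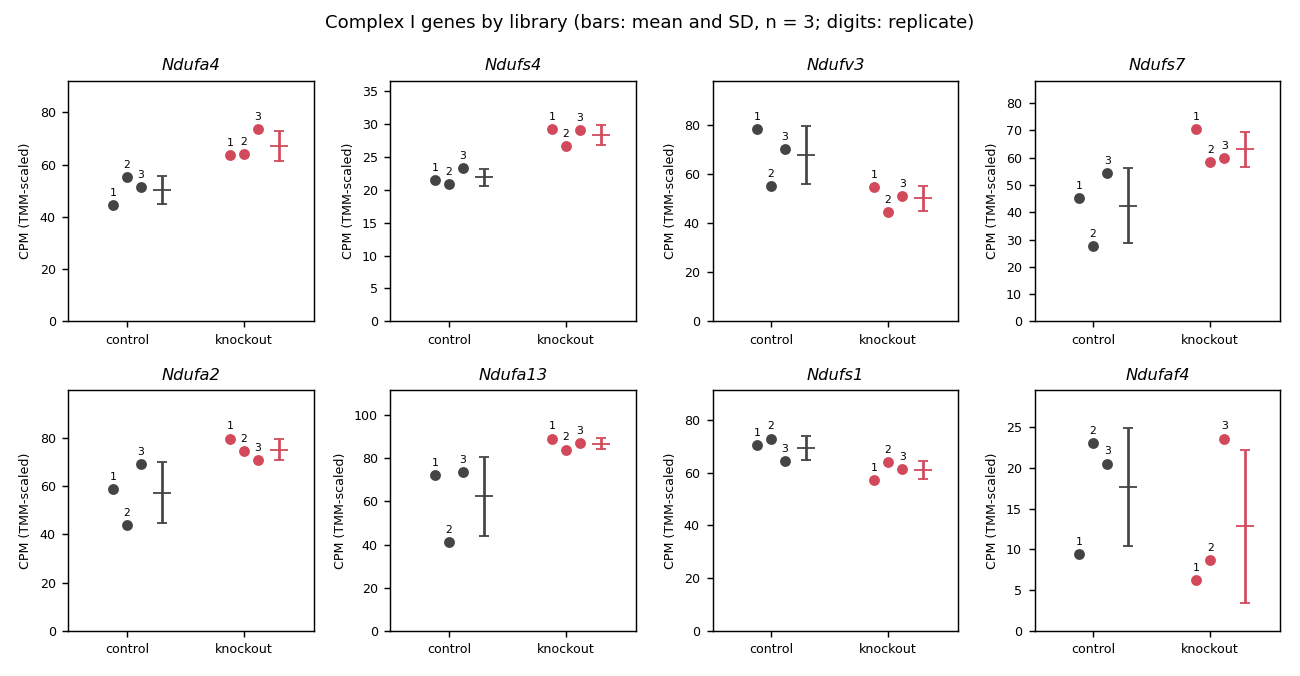
TMM-scaled CPM (y axis, from 0) of 8 complex I genes in each library, with replicate numbers and the mean ± SD of each group (n = 3). Ndufa4 and Ndufs4 have controls close together below all knockouts, control replicate 2 is the lowest library for Ndufs7, Ndufa2 and Ndufa13, and Ndufaf4 varies within both groups.

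The Q module, where ubiquinone is reduced, had a median log2 fold change of 0.08 over 6 genes, 4 positive and 2 negative. Ndufs7, which carries the last iron-sulfur cluster before ubiquinone, had 45.2, 27.6 and 54.6 CPM in controls and 70.5, 58.6 and 60.1 in knockouts. Every knockout was above every control, but the controls spread from control replicate 2 upward over a wider range than the knockouts. Its log2 fold change of 0.54 ± 0.23 was the largest positive value of the 47 genes (unadjusted p = 0.0463, edgeR adjusted p = 0.211) and was 0.34 without control replicate 2. Ndufs8, which carries 2 iron-sulfur clusters, had 33.2, 24.2 and 28.9 CPM in controls and 26.7, 24.0 and 29.9 in knockouts, overlapping throughout (-0.11 ± 0.16). Ndufa5 and Ndufa9, accessory subunits at the foot of this arm, had values of 0.16 and 0.13. The core subunit Ndufs3, which had fewer counts than a copy elsewhere in the genome, is described with the pseudogenes.

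Both parts of the membrane arm had small positive medians that shrank without control replicate 2. The proximal part had a median log2 fold change of 0.12 over 9 genes, 7 positive and 2 negative, and 0.01 without control replicate 2. Ndufa13, also known as GRIM-19 for its link to cell death, had 72.5, 41.3 and 73.7 CPM in controls and 89.2, 84.1 and 87.0 in knockouts. Every knockout was above every control (0.46 ± 0.21, edgeR adjusted p = 0.248), and the value was 0.25 without control replicate 2. In the gene models, 30.0% of its exon bases are shared with Tssk6 on the opposite strand, which had 48 counts in all. Ndufa1, an X-linked subunit needed for assembly, had 30.3, 17.9 and 33.1 CPM in controls and 30.1, 32.6 and 33.1 in knockouts, with control replicate 2 alone low (0.21 ± 0.21, and 0.02 without it). Ndufa8, Ndufa10, Ndufa3, Ndufa11, Ndufc1, Ndufc2 and Ndufs5 ranged from -0.01 (Ndufa11) to 0.18 (Ndufa8). The distal part had a median of 0.11 over 12 genes, 8 positive and 4 negative, and 0.02 without control replicate 2. Ndufb9, a LYR-motif subunit of this part, had 70.4, 43.9 and 82.1 CPM in controls and 74.1, 69.1 and 77.2 in knockouts (0.15 ± 0.21, and -0.05 without control replicate 2). Apart from Ndufb4 and Ndufab1, the distal genes ranged from -0.12 (Ndufb10) to 0.30 (Ndufb3), with Ndufb2, Ndufb5, Ndufb6, Ndufb7, Ndufb8, Ndufb11 and Ndufb1-ps between them. Ndufb1-ps is listed as protein-coding in the deposited table and as a non-coding promoter transcript in GENCODE M21. No distal gene separated the groups without overlap, and among the proximal genes Ndufa13 and Ndufa8 did.

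The genes named Ndufa4 and Ndufa4l2 stand apart from the rest, since Ndufa4 protein belongs to cytochrome c oxidase and Ndufa4l2 is its hypoxia-responsive paralogue. Ndufa4 had 44.5, 55.1 and 51.3 CPM in controls and 63.7, 64.1 and 73.6 in knockouts. All 3 knockouts lay above all 3 controls, and control replicate 2 was here the highest control. The knockout mean was 133.5% of the control mean (log2 fold change 0.42 ± 0.13, unadjusted p = 0.0114), the smallest p of the 47 genes, with adjusted p-values of 0.109 in edgeR, 0.0686 in DESeq2 and 0.0871 in limma. Without control replicate 2 its log2 fold change was 0.49 and its edgeR adjusted p 0.0613. Ndufa4l2 had 5.83, 7.82 and 8.28 CPM in controls and 9.10, 6.52 and 5.77 in knockouts, with full overlap (-0.03 ± 0.25).

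The 8 assembly factors were counted at lower levels, 1.96 (Ndufaf2) to 14.8 (Ndufaf8) CPM per kilobase of merged exons. The median of the 39 subunit-named genes was 23.1. Ndufaf5, which hydroxylates an arginine of Ndufs7, had 6.45, 4.10 and 7.34 CPM in controls and 8.85, 7.41 and 8.93 in knockouts, with the lowest knockout just above the highest control (0.43 ± 0.23, edgeR adjusted p = 0.311), and the value was 0.29 without control replicate 2. Ndufaf6, a factor for early assembly, had 3.09, 3.73 and 2.47 CPM in controls and 2.30, 1.94 and 2.29 in knockouts, all below the controls (-0.47 ± 0.28, edgeR adjusted p = 0.366). Ndufaf3, which acts with Ndufaf4 on the Q module, had 15.7, 9.68 and 17.1 CPM in controls and 11.1, 11.4 and 12.9 in knockouts (-0.30 ± 0.21, edgeR adjusted p = 0.436), and the value was -0.47 without control replicate 2 and -0.16 without control replicate 3. Ndufaf7, a methyltransferase, had 24.2, 20.9 and 21.4 CPM in controls and 20.2, 17.2 and 21.5 in knockouts (-0.18 ± 0.14). Ndufaf1, Ndufaf2 and Ndufaf8 had values of -0.09, -0.05 and 0.11. Ndufaf4 was added after its values were seen, because it varied more within the groups than between them. It had 9.47, 23.1 and 20.6 CPM in controls and 6.21, 8.76 and 23.6 in knockouts, with 1 low control and 1 high knockout (-0.41 ± 0.57). Summed over the 8 genes, the level was 85.5, 86.0 and 98.4 CPM in controls and 76.2, 73.0 and 97.2 in knockouts, with overlap.

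Further complex I factors, other respiratory chain genes and regulators of mitochondrial biogenesis also gave 0 calls, where 3.35% of all genes were called. In lists this short, 0 calls does not set the genes apart from that share. Of 13 further assembly and maturation factors (Acad9, Ecsit, Timmdc1, Foxred1, Nubpl and others), 12 were found in the table and 0 were called, with a median of 0.06. Foxred1, an oxidoreductase-like factor, was the 1 at an unadjusted p under 0.05 (-0.41, edgeR adjusted p = 0.214), where 22.9% of all genes were. Tmem70, also an assembly factor of ATP synthase and named after its values were seen, had 25.0, 19.0 and 24.5 CPM in controls and 24.4, 23.3 and 6.48 in knockouts, so that knockout replicate 3 alone was low. That library had the highest Ndufaf4 value. Of 28 nuclear genes of complexes II, III and V, 0 were called and the median was 0.07. At an unadjusted p under 0.05, again against 22.9% of all genes, were Uqcrh (0.44), Uqcr10 (-0.53) and Sdhd (-0.32). Uqcr10, a small subunit of complex III, was called lower without control replicate 2 (-0.72, edgeR adjusted p = 0.0313). Of 10 regulators of mitochondrial biogenesis, 0 were called, with 5 positive and 5 negative values and a median of 0.04. The most negative were Ppargc1b (-0.96, edgeR adjusted p = 0.325) and Ppargc1a (-0.60, edgeR adjusted p = 0.44). Without control replicate 2 these were -0.18 and -0.25. Hcfc1, a co-regulator whose protein is itself a substrate of O-GlcNAc transferase, had 111.9, 169.5 and 101.6 CPM in controls and 192.4, 154.2 and 195.7 in knockouts (0.51 ± 0.21, edgeR adjusted p = 0.207). Control replicate 2 overlapped the knockouts, and without it Hcfc1 was called higher (0.77, edgeR adjusted p = 0.0339). Gabpb1, part of the ETS-family factor that binds many respiratory chain promoters, had a value of 0.41 with an edgeR adjusted p of 0.132.

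The mt-Nd genes are the mitochondrially encoded core of the membrane arm, and 6 of the 7 had larger log2 fold changes than any nuclear member. Summed over 7 genes, they had 25174, 18942 and 30647 CPM in controls and 44290, 49708 and 37598 in knockouts, with no overlap. The 37 nuclear complex I genes, without Ndufa4 and Ndufa4l2, summed to 1529, 1165 and 1612 CPM in controls and 1556, 1488 and 1545 in knockouts, where the knockouts lay within the range of the controls. The mt-Nd sum over the nuclear sum was therefore 16.5, 16.3 and 19.0 in controls and 28.5, 33.4 and 24.3 in knockouts, or 17.2 ± 1.54 and 28.7 ± 4.54 (SD, n = 3 per group). Control replicate 2, low in both sums, did not stand apart in this ratio. mt-Nd5 had 5345, 4113 and 6343 CPM in controls and 10632, 12051 and 8420 in knockouts, all above the controls. Its log2 fold change of 0.98 ± 0.22 came near to the threshold (edgeR adjusted p = 0.0561) and passed it in DESeq2 and limma. mt-Nd1 (0.91), mt-Nd3 (0.81), mt-Nd2 (0.80), mt-Nd4l (0.76) and mt-Nd4 (0.66) also had all knockouts above all controls, so 6 of 7 did, against 16.9% of all genes in that direction. edgeR called 0 of the 7, DESeq2 called 5 and limma 2, against 3.35%, 9.54% and 4.66% of all genes. An unadjusted edgeR p under 0.05 was found for 6 of the 7, against 22.9% of all genes. mt-Nd6, the member transcribed from the other strand of mitochondrial DNA, had 132.1, 259.6 and 143.4 CPM in controls and 147.4, 197.3 and 168.2 in knockouts. Its log2 fold change was -0.05 ± 0.27, and the sign turned without control replicate 2, with limma voom and without a filter. The other 6 genes are transcribed together and are not independent of each other. Genes of mitochondrial DNA also have nuclear copies, and the labels do not say how the libraries treated mitochondrial RNA.

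**Figure D3:**
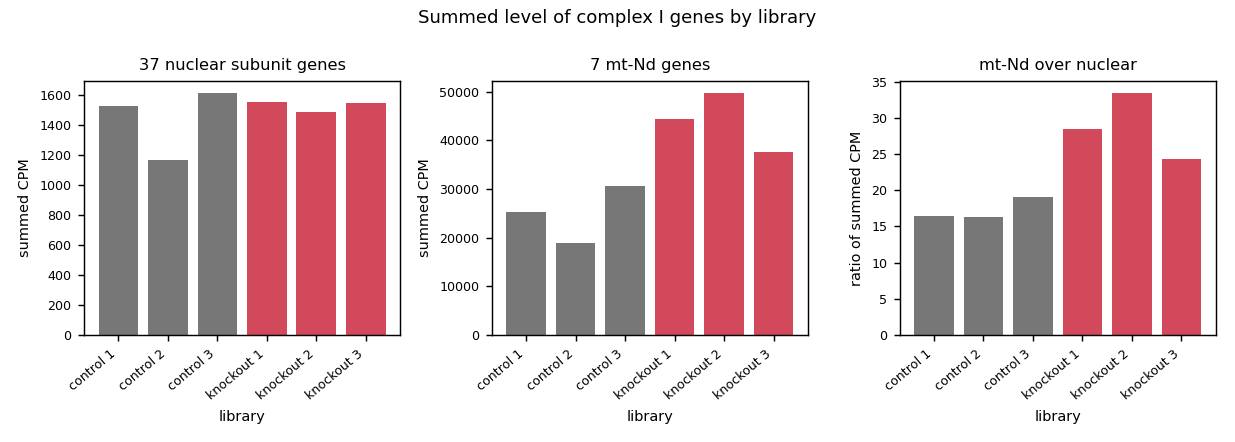
Summed TMM-scaled CPM of the 37 nuclear complex I genes (left) and of the 7 mt-Nd genes (middle), and the ratio of the second to the first (right), 1 bar per library from 0. The nuclear sums overlap between groups, and the ratio is 16.3 to 19.0 in controls and 24.3 to 33.4 in knockouts.

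Control replicate 2 stood apart in the nuclear complex I genes. It was the lowest of the 6 libraries for 24 of 39 subunit-named genes (61.5%), against 32.4% of all genes, and the highest for 5. Against controls 1 and 3, its median log2 difference over the 39 genes was -0.46, while over all genes tested it was -0.05. The deficit was larger in short genes. It was -0.56 over the 20 genes with under 1500 exon bases and -0.23 over the 19 with more. Across the 39 genes, which share libraries and depth, Spearman's rho between exon bases and this difference was 0.55. Without this library the median log2 fold change of the 39 genes was 0.01 in place of 0.09. The deviation of the 39 genes from their own mean had a median of 0.06, -0.34 and 0.10 in controls and 0.07, 0.01 and 0.07 in knockouts (log2), so that control replicate 2 alone lay below the rest.

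**Figure D4:**
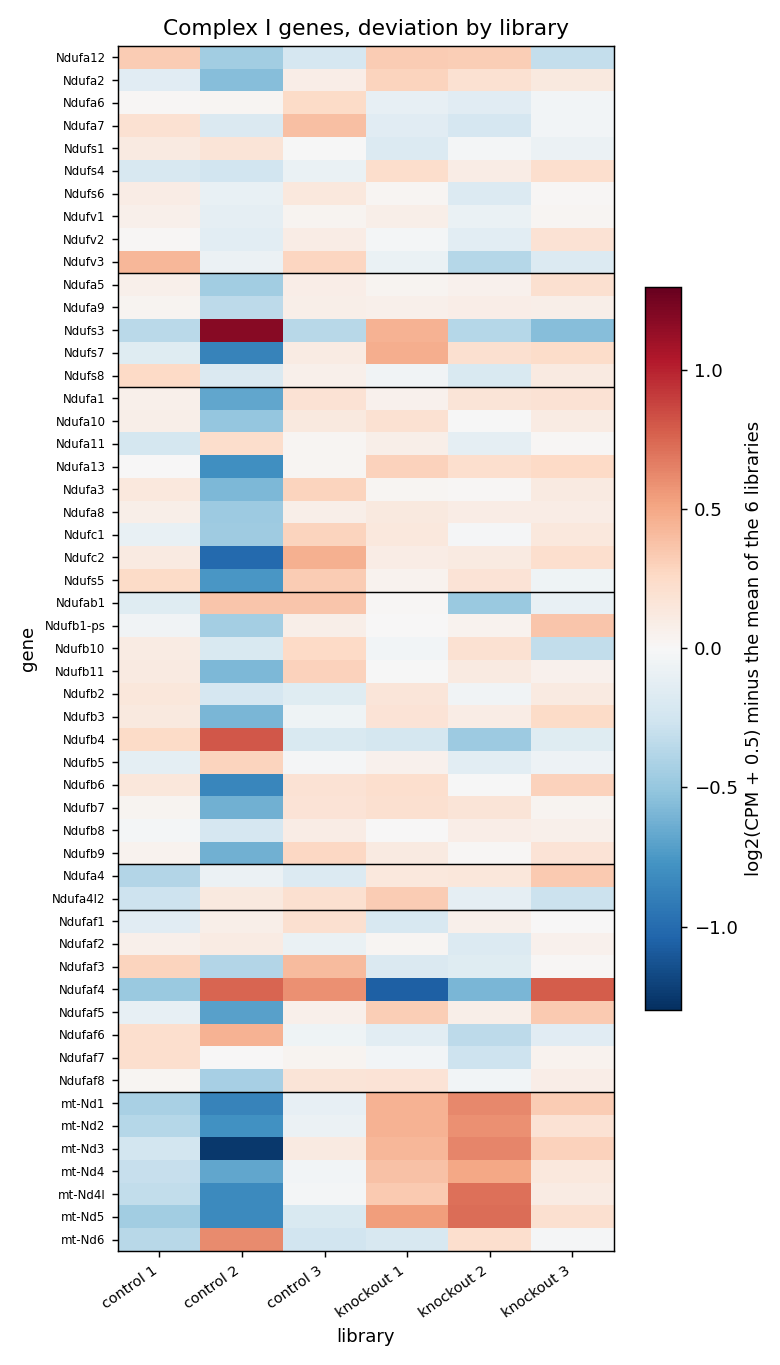
Deviation of log2(CPM + 0.5) from the mean of the 6 libraries (colour, blue low and red high) for 46 Nduf genes and 7 mt-Nd genes (rows, grouped as N module, Q module, proximal arm, distal arm, Ndufa4 and Ndufa4l2, Ndufaf, mt-Nd) in each library (columns). The column of control replicate 2 is blue for most subunit-named genes, and the mt-Nd rows other than mt-Nd6 are redder in the 3 knockout columns.

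Processed pseudogenes of Ndufs3, Ndufab1, Ndufb4 and Ndufa12 had more counts than the genes themselves. Of the 47 genes, 11 had near-identical same-strand copies among annotated processed pseudogenes (at least 100 aligned bases at 95% identity or more). How reads that fit more than one place were counted is not stated in the labels or the table, so the split between a gene and its copy is uncertain. The sequences below are shown because they set how well a read can tell each pair apart. They are coding-strand windows of 120 bases from GENCODE M21 transcripts of GRCm38, with bases that differ within a pair in capitals. Each is the first window of the aligned coding sequence with the most differences. Other stretches of a pair therefore differ as much or less. The window starts at coding base 1, except for Ndufa12, where it starts at base 37.
Ndufs3: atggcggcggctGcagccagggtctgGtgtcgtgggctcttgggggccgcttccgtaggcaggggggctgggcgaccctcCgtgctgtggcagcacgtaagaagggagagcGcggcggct
Gm12251: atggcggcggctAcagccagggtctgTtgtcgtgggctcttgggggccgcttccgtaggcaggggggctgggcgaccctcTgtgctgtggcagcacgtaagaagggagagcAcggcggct
Ndufa12: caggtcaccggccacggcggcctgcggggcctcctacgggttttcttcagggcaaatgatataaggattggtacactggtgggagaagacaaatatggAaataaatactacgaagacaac
Ndufa12-ps: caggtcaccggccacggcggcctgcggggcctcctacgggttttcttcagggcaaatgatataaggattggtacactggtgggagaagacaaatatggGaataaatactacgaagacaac
Ndufs5: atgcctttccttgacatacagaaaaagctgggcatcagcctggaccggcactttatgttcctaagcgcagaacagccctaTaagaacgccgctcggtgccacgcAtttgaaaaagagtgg
Ndufs5-ps: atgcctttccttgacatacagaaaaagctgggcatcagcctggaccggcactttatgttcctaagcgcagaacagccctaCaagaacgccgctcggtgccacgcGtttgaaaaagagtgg
Ndufb4 and Ndufb4c: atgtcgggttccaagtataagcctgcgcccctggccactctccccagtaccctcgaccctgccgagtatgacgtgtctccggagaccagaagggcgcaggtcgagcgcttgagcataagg
Ndufb4c (chr15:73809507-73809896) matched the Ndufb4 coding sequence over 390 aligned bases with 0 differences, so its window is printed once. Over the whole alignments, Gm12251 (chr11:58392769-58393560) had 11 differences in 792 bases, Ndufa12-ps 2 in 402 and Ndufs5-ps 2 in 319.

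Ndufs3, a core subunit on which assembly of the Q module starts, had 91 counts in all, while Gm12251 had 1121, or 92.5% of the pair. The gene stood at 0.961, 3.73 and 0.944 CPM in controls and 2.04, 0.940 and 0.762 in knockouts (-0.32 ± 0.67). Counted together with its copies, it had 14.1, 11.9 and 14.0 CPM in controls and 19.4, 14.1 and 17.1 in knockouts. Its log2 fold change then turned positive, to 0.32 ± 0.17 (edgeR adjusted p = 0.303). The nearby genes Kbtbd4, Ptpmt1 and Celf1 had 10, 20 and 111 counts. Mtch2 and Psmc3, further out on either side, had 2135 and 8378. These genes were picked by name, and any others between them were not looked up. Low counts were thus shared by the nearby genes Kbtbd4, Ptpmt1 and Celf1, and copies were searched for the Nduf genes only. Ndufb4 had 214 counts against 335 on Ndufb4c (61.0% of both). Alone it gave the most negative value of the 47 genes, with 3.64, 5.59 and 2.54 CPM in controls and 2.47, 1.999 and 2.61 in knockouts (-0.65 ± 0.34, edgeR adjusted p = 0.305), which was -0.38 without control replicate 2. Pooled with its copies it gave 7.89, 7.45 and 7.56 CPM in controls and 6.46, 6.52 and 6.70 in knockouts, a narrower -0.22 ± 0.16 (edgeR adjusted p = 0.456). Ndufab1, the mitochondrial acyl carrier protein, had 13.4, 19.4 and 19.4 CPM in controls and 15.2, 10.6 and 14.0 in knockouts, with 62.5% of counts on its 2 processed copies. Its log2 fold change was -0.37 alone and -0.20 pooled. An unprocessed pseudogene that also matched it, Gm10499 (152 aligned bases, 21 counts), was not pooled. Ndufa12 and Ndufs5 had 55.0% and 45.5% of counts on copies, and pooled values of 0.23 and -0.07. For Ndufs6, Ndufb11, Ndufc1 and Ndufb3 the share was between 0.914% and 7.39%, and 0 of the 11 pooled genes were called.

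**Figure D5:**
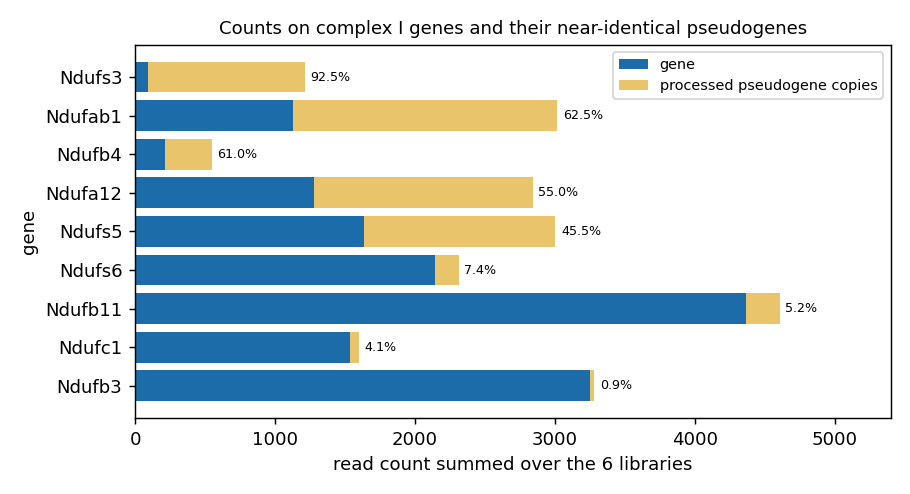
Read counts summed over the 6 libraries for 9 complex I genes (blue) and for their processed pseudogene copies (yellow), with the percentage of counts on the copies. Ndufs3, Ndufab1, Ndufb4 and Ndufa12 have more counts on copies than on the gene.

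Levels of the genes were compared per length. By the authors' FPKM, the 39 subunit-named genes spanned 0.431 to 116.2 around a median of 12.6 (means of 6 libraries). The highest were Ndufa2 (116.2), Ndufa1 (71.1) and Ndufb9 (60.3), genes of 572, 419 and 1031 exon bases. The lowest were Ndufs3 (0.431), Ndufb4 (1.31) and Ndufab1 (1.78). All 3 had counts split over copies, but so did Ndufa12 (5.19) and Ndufs5 (15.5). The reason for the 3 lowest levels was not tested. The deposited FPKM divide by the summed length of all distinct exons of a gene's transcripts, which held for all 47 genes. That length was a median 1.52 times, and for Ndufv1 2.57 times, the merged exon length. On CPM per kilobase of merged exons, the same genes ranked at both ends, and Ndufv1 was at 24.1 in place of an FPKM of 9.39.

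Promoters of the nuclear genes were searched for motifs of factors known to bind respiratory chain promoters. RefSeq promoters (GRCm38.p6, 250 bases before to 50 after the start) were matched for 41 of the 47 genes, 34 subunit-named and 7 Ndufaf. The motifs, read on both strands, were the palindromic core of NRF1 with any base at its 1 free position, AAGATGGC (YY1) and CCGGAAG (ETS family, which includes the Gabpa and Gabpb1 dimer). The NRF1 letters stood in 7 of 34 subunit-named promoters (20.6%) and 2 of 7 Ndufaf promoters, against 5.19% of 27025 genes with a promoter. The YY1 letters stood in 7 of 34 (20.6%) and 1 of 7, against 3.19%. These letters contain ATG, the start codon, and the windows reach past the transcript start. How many of the matches are start codons was not tested. The ETS letters stood in 4 of 34 (11.8%) and 2 of 7, against 9.93%. At least 1 motif stood in 17 of 34 and 4 of 7, against 16.4%. Ndufs6 and Ndufs4 are printed, the first as the subunit with both NRF1 and YY1 letters, the second as the complex I subunit with the smallest p. Motif letters are in capitals, and each window is given 5′ to 3′ on the gene's own minus strand, from chr13:73328433-73328732 and chr13:114388045-114388344.
Ndufs6: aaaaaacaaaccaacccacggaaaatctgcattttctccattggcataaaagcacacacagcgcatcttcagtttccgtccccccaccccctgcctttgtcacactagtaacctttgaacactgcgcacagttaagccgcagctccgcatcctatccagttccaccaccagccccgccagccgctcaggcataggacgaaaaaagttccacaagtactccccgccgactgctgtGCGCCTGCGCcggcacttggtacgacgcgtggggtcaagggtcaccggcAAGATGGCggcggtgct
Ndufs4: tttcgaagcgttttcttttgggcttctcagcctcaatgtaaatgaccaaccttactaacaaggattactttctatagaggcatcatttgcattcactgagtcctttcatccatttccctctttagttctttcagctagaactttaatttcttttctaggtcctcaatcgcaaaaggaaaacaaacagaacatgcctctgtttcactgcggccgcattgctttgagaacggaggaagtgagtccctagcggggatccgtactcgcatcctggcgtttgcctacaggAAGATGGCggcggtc
In both windows the YY1 letters lie near the 3′ end, and in Ndufs6 they do not overlap the NRF1 letters. Ndufs7, with the largest positive value, also holds the YY1 letters, and Ndufv3 and Ndufa13 hold none of the 3 motifs. A match of letters does not show that a factor binds there.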

How the data were processed

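The deposited table gave read counts and FPKM per gene for 3 control and 3 knockout libraries, per the file headers. The deposited counts are unscaled whole numbers, and the deposited FPKM were used only for levels between genes. CASAVA 1.8, HISAT2, SAMtools 1.3.1 and edgeR are named in the submitters' processing notes. The counting program, its annotation and strand setting, and its treatment of reads with several matches are not stated in the sources at hand. Those notes name GRCm39, yet 54907 of 55227 shared identifiers (99.4%) have GENCODE M21 positions of GRCm38, so coordinates are given as GRCm38.

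Members and gene lists were chosen with earlier results of these data known. Genes with a summed count of at least 60 were kept, and groups were compared with edgeR 4.0.16 (quasi-likelihood F test, TMM scaling, robust estimation) in R 4.3.3, with Benjamini-Hochberg adjustment over 15977 genes and a threshold of 0.05. Log2 fold changes carry the standard error, and CPM in a group is mean ± SD. Described in full were the 8 subunits and 4 Ndufaf genes with the smallest p, the nuclear core subunits, Ndufa4, Ndufa4l2, Ndufb4, the 3 highest and 3 lowest subunits by FPKM and the mt-Nd genes. The values of 1 member, counted in all sums and totals, are not reported here. DESeq2 1.42.0, limma voom 3.58.1, other scalings and filters, a replicate block and leaving out each library were alternatives. Copies were found by aligning member transcripts to GENCODE M21 transcripts, and pooling their counts with the gene was an alternative added after seeing the data. The test was tested on simulated counts of 15760 genes, where 7 of 144 calls were false. Within groups, libraries differed by a mean chi-square of 17.4 or more per gene, so none repeats another. P-values reflect variation among these libraries only, which can include technical variation. Total counts ran from 3038782 to 18218385, so control replicate 2 is the least precise.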

Additional observations from a re-analysis of the deposited data

How the results depend on the processing

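The number of all genes called was 535, and it was 1524 with DESeq2, 25 with the replicate block and 7 to 910 when 1 library was left out (910 without control replicate 2). Replicate numbers did not pair the libraries (r = 0.0643, 0.0858 and -0.0477 between same-numbered libraries), and with the replicate block 0 subunit-named genes were called and their median log2 fold change was 0.09. Without control replicate 2, 1 subunit-named gene (Ndufv3) and 1 gene of complexes II, III and V were called, and leaving out any other library called 0 of either, so both counts ran from 0 to 1. Of the 7 mt-Nd genes, 5 were called with DESeq2, 2 with limma voom and 1 without a filter. The median of the subunit-named genes ranged from 0.01 to 0.16 over the alternatives, within 1 SD (0.174) of the libraries' medians. Control replicate 2 (-0.34, against 0.06 and 0.10 in controls 1 and 3) widens that SD, so it is a loose bound. Over 28 named genes, 353 of 385 alternative values kept direction and side of the threshold, 9 passed it newly and 23 changed sign, all of them of genes with a log2 fold change near 0 or an interval that spans it. Ndufv1 was -0.01 with DESeq2 (-0.0070), limma voom (-0.013) and nuclear scaling (-0.0089), -0.00063 with RLE scaling, and -0.0427 to 0.0466 with a library left out. Ndufv2 was -0.0158 with limma voom, -0.0028 with nuclear scaling and -0.0899 to 0.0797 with a library left out. Ndufa4l2 was 0.0152 without a filter and -0.247 to 0.103 with a library left out. With a library left out, Ndufb9 ran from -0.0478 to 0.336 and Ndufs3 from -0.86 to 0.343, each changing sign only without control replicate 2, and Ndufs3 was 0.322 with its copies pooled. mt-Nd6 was 0.0174 with limma voom, 0.0196 without a filter and -0.236 to 0.317 with a library left out. The cause of these changes was not tested. DESeq2 gave no adjusted p for Ndufs3. Depth limits Ndufs3, Ndufaf6 and Ndufb4, with 91, 191 and 214 counts in all.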
